A study of Mus musculus with 90 samples.

Results

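The 8 genes described here encode the enzymes that turn arachidonic acid into eicosanoids, the short-lived lipid signals of platelets and white blood cells. They are Alox12, Alox5, Alox5ap, Ptgs1, Ptgs2, Tbxas1, Ltc4s and Pla2g4a, and all 8 were found by symbol among the 35869 genes of the deposited table of 33 single-cell libraries. The set was chosen by the levels of Alox12 and Alox5 in knockout megakaryocyte-like cells of these libraries, so those levels are given as a description. The cells came from mice whose Runx1 alleles are flanked by loxP sites. Knockout (KO) mice were MxCre1+/-,RUNX1f/f and wild-type (WT) controls were MxCre1-/-,RUNX1f/f, so the floxed alleles were common to both genotypes. The Mx1 promoter that drives this Cre responds to interferon and is not limited to 1 blood lineage. All animals had 4 poly(I:C) injections, and CD41-positive hematopoietic stem cells (HSCs) were sorted from bone marrow 4 weeks later and cultured for 2 days. Cells that had taken on a megakaryocyte-like form (MK) and cells that had not (NMK) were then picked singly for SMART-Seq, which copies whole transcripts. The 33 libraries were 5 KO MK, 6 WT MK, 13 KO NMK and 9 WT NMK.

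Cytosolic phospholipase A2, the product of Pla2g4a, cuts arachidonic acid from membrane lipids. The cyclooxygenases, encoded by Ptgs1 and Ptgs2, turn it into prostaglandin H2, from which thromboxane synthase (Tbxas1) makes thromboxane A2, an activator of platelets. The 12-lipoxygenase of platelets (Alox12) makes 12-HETE from the same acid. The 5-lipoxygenase of white blood cells (Alox5) works with the activating protein FLAP (Alox5ap) to make leukotriene A4, which leukotriene C4 synthase (Ltc4s) joins to glutathione. In humans, platelets of people with inherited loss of 1 RUNX1 copy were reported to hold little ALOX12. No value below bears on enzyme activity or on the lipids themselves.

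Values are TPM, a transcript abundance per length that adds up to an equal sum in all libraries, so the number of reads behind a value is unknown. A library stands for 1 cell, and the labels give neither animals nor cultures, so each group counts as 1 sample: SDs are between cells, no test was run, and no p-value is given. Genes above 0 numbered 11896 to 14487 in KO MK, 14089 to 15252 in WT MK, 3011 to 10987 in KO NMK and 5475 to 11715 in WT NMK libraries. Runx1 was not a check of the genotype, since TPM are listed per gene and reads of single exons were not examined. Whether each KO cell had lost its floxed alleles was not tested. The Runx1 median was 12.6 TPM in KO MK and 11 TPM in WT MK cells. In NMK cells it was 6.7 TPM in KO and 5.3 TPM in WT. The MK label was checked with 21 megakaryocyte markers. Among KO MK cells their summed TPM was 59266.1, 36956.6 and 21512.3 in replicates 1B, 1A and B1-3, but 619.2 in B1-4 and 467.9 in replicate 2, with 8 and 6 of the 21 markers listed at 0, Gp1bb, Vwf and Clec1b in both. It was 13609.5 to 22448.7 TPM in WT MK cells, 71.8 to 894.7 TPM in KO NMK cells and 73.2 to 1701.9 TPM in WT NMK cells. Itga2b, which encodes the CD41 used in the sort, was 0.1 and 7.8 TPM in B1-4 and 2. The labels of these 2 cells thus went against their markers, and the differences of the 8 genes that rest on KO MK cells are given with and without them. In 2 KO NMK libraries, B1-1b and B1-2a, the mean log2(TPM + 1) of 14 housekeeping genes was 4.62 and 3.01, against 8.36 or more in the other 31, and the 8 enzymes summed to 3.2 and 0 TPM. The 5 WT MK libraries whose titles have no prefix correlated with each other across genes at r = 0.97 to 0.98, and with the sixth at 0.93 to 0.95. Whether they share cDNA cannot be told from TPM, so their SD may understate the spread between cells, and values with these 5 counted as 1 are given where a call changed.

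Because RUNX1 was the gene deleted, the 250 bases before each start site were searched for the core RUNX motif TGTGGT on both strands (ACCACA on the other) and for the GATA motifs AGATAA and TGATAA. RefSeq promoter windows (GRCm38.p6) were found for 7 of the 8 genes, with 8 start sites, and those of the 2 lipoxygenases and of the 2 genes with a RUNX motif are shown, with the motif in capitals. They lie at chr11:70255371-70255620 (minus strand, Alox12), chr6:116461179-116461428 (minus, Alox5), chr11:50238533-50238782 (minus, Ltc4s) and chr1:150099781-150100030 (plus, Ptgs2), and each is written 5′ to 3′ on the strand of its gene.
Alox12: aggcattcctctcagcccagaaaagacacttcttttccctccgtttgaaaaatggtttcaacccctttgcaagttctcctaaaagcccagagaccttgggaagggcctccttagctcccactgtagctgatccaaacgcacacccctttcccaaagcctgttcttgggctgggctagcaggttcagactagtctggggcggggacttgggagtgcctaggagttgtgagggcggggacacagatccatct
Alox5: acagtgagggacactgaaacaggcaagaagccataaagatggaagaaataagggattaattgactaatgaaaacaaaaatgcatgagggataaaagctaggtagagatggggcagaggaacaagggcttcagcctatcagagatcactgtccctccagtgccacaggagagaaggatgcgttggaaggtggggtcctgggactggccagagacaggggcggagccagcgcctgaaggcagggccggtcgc
Ltc4s: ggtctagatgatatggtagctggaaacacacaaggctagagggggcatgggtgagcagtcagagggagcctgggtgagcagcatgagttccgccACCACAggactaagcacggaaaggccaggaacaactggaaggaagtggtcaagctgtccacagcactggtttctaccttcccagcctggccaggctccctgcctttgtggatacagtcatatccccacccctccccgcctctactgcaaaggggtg
Ptgs2: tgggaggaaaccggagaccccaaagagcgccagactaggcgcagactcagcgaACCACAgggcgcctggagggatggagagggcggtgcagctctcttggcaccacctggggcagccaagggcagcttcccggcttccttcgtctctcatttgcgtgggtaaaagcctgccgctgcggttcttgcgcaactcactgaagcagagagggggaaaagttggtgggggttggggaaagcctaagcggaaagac
The motif stood 156 bases before the start of Ltc4s and 197 bases before that of Ptgs2, and its letters were in neither the Alox12 nor the Alox5 window. Of 32851 mouse promoter windows of this length, 14.0% held it. A GATA motif was found in 1 of the 8 windows, that of a second start site of Pla2g4a, against 16.6% of all windows. These matches describe letters in a short window and say nothing of binding.

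Alox12 was high in the 3 KO MK cells that carried megakaryocyte markers and low in all other cells. The gene occupies chromosome 11, 70241457 to 70255353, minus strand (GRCm38, GENCODE M21). Its level was 653.1, 269.9 and 200.9 TPM in KO MK replicates 1B, 1A and B1-3, 2.1 TPM in replicate 2 and 0 in B1-4, against 0, 0.3, 0.2, 0.2, 2.8 and 1.7 TPM in the 6 WT MK cells. It was listed at 0 in all 13 KO NMK cells, and among WT NMK cells it was 5.4 TPM in replicate 1, 3.8 TPM in replicate 2 and 0 in the other 7. Thus 3 of 5 KO MK cells stood far above every WT cell, while the remaining KO MK cells fell within the range of WT cells, so the groups overlapped. The group means were 225.2 TPM ± 267.5 (SD, n = 5) in KO MK, 0.867 TPM ± 1.13 (n = 6) in WT MK, 0 in KO NMK (n = 13) and 1.02 TPM ± 2.07 (n = 9) in WT NMK cells.

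On the scale used for all comparisons, the difference in mean log2(TPM + 1), Alox12 was 4.63 higher in KO MK than in WT MK cells against a pooled SD between cells of 2.87. Without KO MK B1-4 and 2, a setting chosen after seeing the data, the difference was 7.65 against an SD of 0.81, and every remaining KO MK cell lay above every WT MK cell. Summed megakaryocyte markers in 1B and 1A were above those of every WT MK cell, and the part of that in the Alox12 level was not tested. In B1-3 the sum, 21512.3 TPM, was within the WT MK range, and Alox12 was 200.9 TPM there and no more than 2.8 TPM in WT MK cells. Most of that sum was Pf4, at 13751.7 TPM, which was within the WT MK range, as was Itga2b. Gp1bb, Gp9, Tubb1 and Gata1 were above every WT MK cell, at 253.4, 73.3, 7.6 and 285.1 TPM. Their WT MK maxima were 112.7, 30.7, 0.1 and 41 TPM. B1-3 was thus not matched to WT MK cells in single markers, whose part in the Alox12 level was not tested. Between WT MK and WT NMK cells Alox12 differed by 0.16 against an SD of 0.98, and between KO NMK and WT NMK cells by -0.55 against 0.69, both less than the spread between cells. The difference between KO MK and KO NMK cells was 5.34 on this scale, and 8.36 without B1-4 and 2, with no fold behind either because KO NMK cells are listed at 0. The scatter of Alox12 over marker sums shows these 3 cells above all others.

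**Figure D1:**
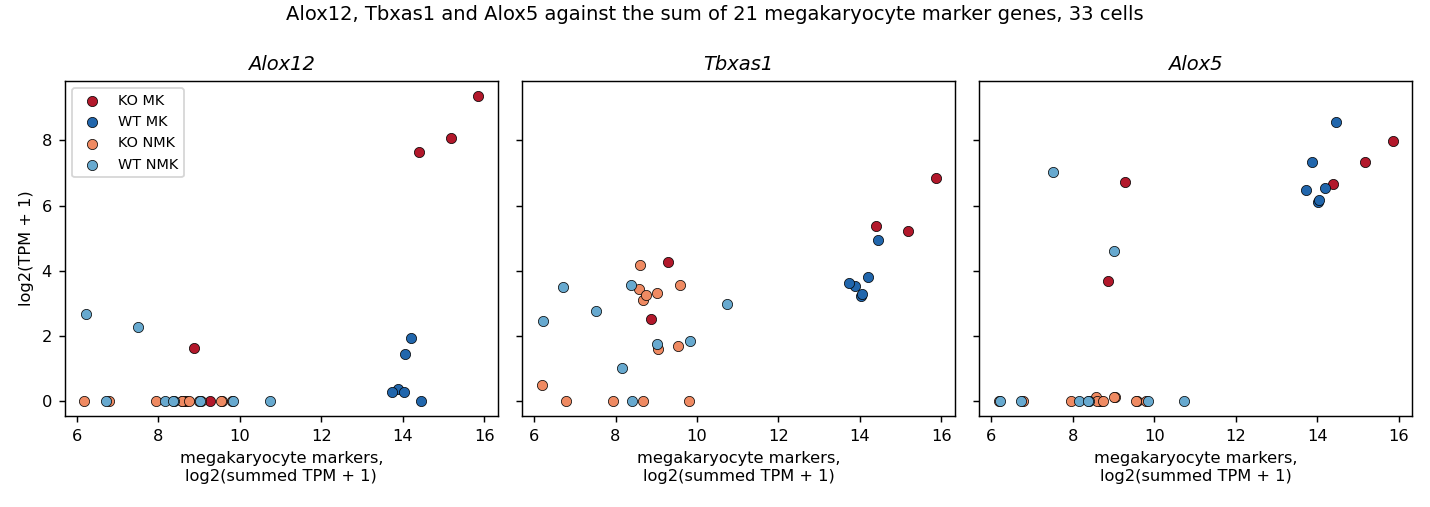
Alox12, Tbxas1 and Alox5, as log2(TPM + 1), against the summed TPM of 21 megakaryocyte markers, as log2(sum + 1), with 1 point per cell (5 KO MK, 6 WT MK, 13 KO NMK and 9 WT NMK). The 3 KO MK cells at 200.9 to 653.1 TPM of Alox12 have marker sums of 21512.3 TPM or more, and the 6 WT MK cells, at sums of 13609.5 to 22448.7 TPM, have 2.8 TPM or less. Cells of like sums can differ in single markers, as B1-3 and the WT MK cells do in Gp1bb, Gp9, Tubb1 and Gata1.

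The authors left 13 further libraries out of this table, and they were not used to choose the genes. Of the 4 such KO MK libraries, replicate 1 had 256.9 TPM of Alox12, B1-1 had 69.2 TPM, B1-1b had 43.6 TPM and B1-1a had 0.4 TPM. The 5 left-out WT MK libraries had 0 to 0.4 TPM, and the 3 KO NMK and 1 WT NMK libraries were at 0. Over the full table Alox12 was at 10 TPM or more in 6 of 9 KO MK libraries and in none of 11 WT MK, 16 KO NMK and 10 WT NMK libraries. Of the left-out KO MK libraries, replicate 1 had a housekeeping score of 8.33 and a marker sum of 68474.7 TPM, while the other 3 had scores of 6.34 or less and 71.5 to 94.8% of their TPM on mitochondrial genes. All 5 left-out WT MK libraries had scores of 3.52 to 5.29. Mitochondrial genes held 85.4 to 95.5% of TPM in B1-1a, B1-2a and B1-2b, and B1-1b and B1-2 had 2666 and 2676 genes above 0. Their low Alox12, also within the count of 11 WT MK libraries, thus tells little of sound WT MK cells.

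**Figure D2:**
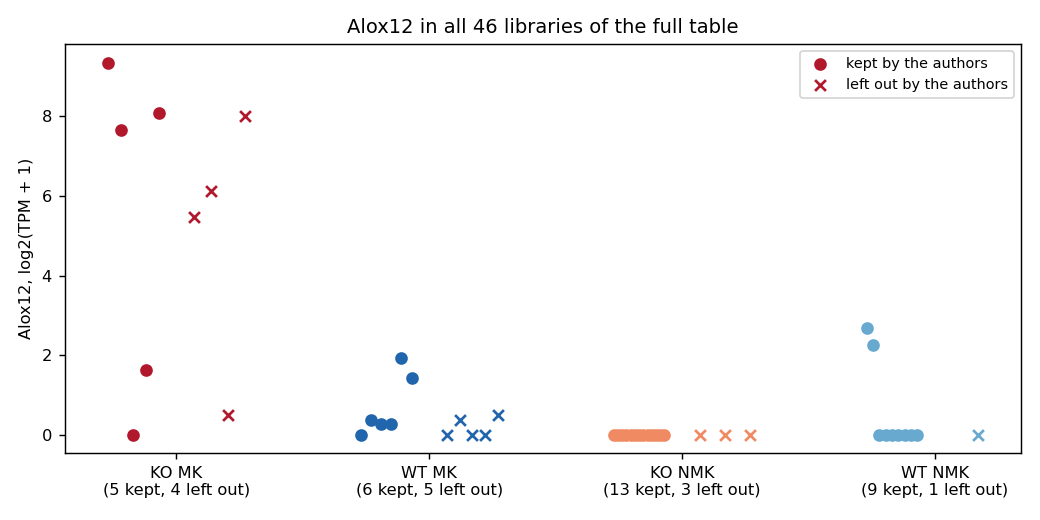
Alox12 as log2(TPM + 1) in all 46 libraries of the full table, by group. Circles are libraries the authors kept and crosses are libraries they left out. Of the 4 left-out KO MK libraries, 3, at 43.6, 69.2 and 256.9 TPM, lie above every WT library. The 5 left-out WT MK libraries had housekeeping scores of 5.29 or less.

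Alox5 marked MK cells of both genotypes rather than KO MK cells alone. The gene occupies chromosome 6, 116410077 to 116461178, minus strand. Its level was 254.2, 161.1, 104.5, 100.1 and 11.8 TPM in KO MK replicates 1B, 1A, B1-4, B1-3 and 2, against 379, 159.3, 92.2, 88.4, 70.8 and 68.1 TPM in WT MK replicates B1-1, 1, 1A, 4, 1B and 2. In KO NMK cells it was 0 to 0.1 TPM in all 13, and in WT NMK cells it was 129.3 TPM in replicate 2, 23.2 TPM in replicate 3 and 0 in the other 7. All 11 MK cells thus held it, and KO and WT ranges overlapped widely. Every KO MK cell lay above every KO NMK cell, as was so of 0.299% of genes. Alox5 was chosen by its level in KO MK cells, so nothing is read from that share. KO MK cells averaged 126.3 TPM ± 89.2 and WT MK cells 143.0 TPM ± 120.3 (SD, n = 5 and 6), and KO MK minus WT MK was -0.39 (SD 1.31) on the log2(TPM + 1) scale. Without replicate 2 this difference was 0.31, and without B1-4 and 2 it was 0.47 against an SD of 0.87, so the sign depended on the cells included and none of these 3 values exceeded the spread. With the 5 similar WT MK libraries counted as 1 it was -1.10 (SD 1.61).

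Between MK and NMK cells the difference of Alox5 was far larger. It was 6.45 (SD 0.83) in KO and 5.57 (SD 2.15) in WT cells, and KO MK minus KO NMK was 7.30 without B1-4 and 2. Among 13365 genes averaging at least 1 TPM in KO MK or KO NMK cells, Alox5 ranked 4 from the top by difference. That rank uses the KO MK cells by which the gene was chosen, so nothing is read from it. In WT cells Alox5 ranked 19 among 11562 genes. The level in KO MK B1-4, 104.5 TPM, came with few megakaryocyte transcripts, as did 129.3 TPM in WT NMK replicate 2, whose marker sum was 181.7 TPM. Within single cells Alox12 exceeded Alox5 in 3 of 5 KO MK cells, by 2.57, 1.68 and 2.01 times in 1B, 1A and B1-3, and in 0 of 6 WT MK cells, where Alox5 was the higher in every cell. The other 5 lipoxygenase genes listed had group means of 0.083 TPM or less and reached at most 0.5 TPM in any cell.

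**Figure D3:**
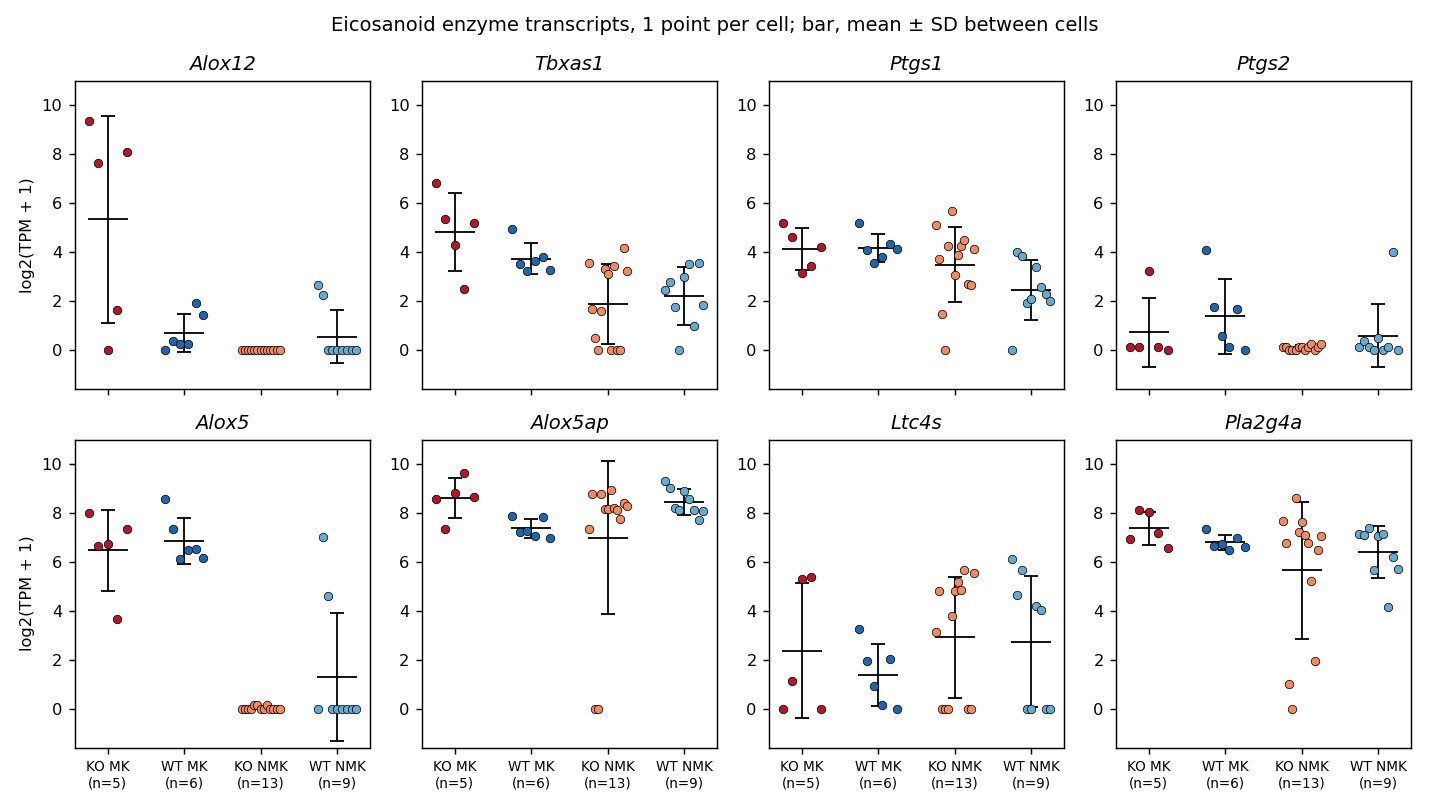
Level of each of the 8 genes as log2(TPM + 1), 1 point per cell, with the mean ± SD between cells for KO MK (n = 5), WT MK (n = 6), KO NMK (n = 13) and WT NMK (n = 9). Alox12 separates 3 KO MK cells from the rest, Alox5 is present in all 11 MK cells and at 0.1 TPM or less in all 13 KO NMK cells, and Alox5ap and Pla2g4a are high in every group.

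Alox5ap, which presents arachidonic acid to 5-lipoxygenase, was abundant whether or not Alox5 was there. The gene occupies chromosome 5, 149264767 to 149288153, plus strand. Its level was 791.3, 450.4, 401.9, 380.6 and 162.1 TPM in KO MK replicates 2, B1-4, 1A, 1B and B1-3, against 123.5 to 235.3 TPM, with a median of 148.95 TPM, in the 6 WT MK cells. In KO NMK cells the median was 287.3 TPM (0 to 490.1), with 0 in B1-1b and B1-2a alone, and in WT NMK cells it was 290.7 TPM (207.3 to 639.7). WT MK cells had the lowest mean, 169.1 TPM ± 49.0 (SD, n = 6), and 4 of 5 KO MK cells were above all of them. KO MK exceeded WT MK cells by 1.24 (SD 0.62), which was 0.99 without replicate 2 and 0.83 (SD 0.52) without B1-4 and 2, under the 2-fold limit, and 2.50 against a larger SD of 3.59 in the full table. KO MK minus KO NMK was 1.61 (SD 2.74), and 1.2004 (SD 2.91) without B1-4 and 2. WT MK minus WT NMK was -1.08 (SD 0.48), with overlapping ranges, and it was smaller than 2-fold without WT NMK replicate 1 (-0.97), without WT MK 1B, or with the 5 similar WT MK libraries counted as 1 (-0.85). In the 11 KO NMK cells other than B1-1b and B1-2a, Alox5ap averaged 320.5 TPM ± 98.0 while Alox5 was at 0.1 TPM or less.

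Ltc4s, the first enzyme of the cysteinyl leukotriene branch, was present in part of the cells of each group. It occupies chromosome 11, 50236461 to 50238616, minus strand. Its level was 41.2 and 37.8 TPM in KO MK replicates 2 and B1-4, 1.2 TPM in B1-3 and 0 in 1B and 1A, against 8.6, 3.1, 2.9, 0.9, 0.1 and 0 TPM in WT MK cells. In NMK cells it was at 1 TPM or more in 8 of 13 KO cells, up to 50.1 TPM, and in 5 of 9 WT cells, up to 68.3 TPM, and 0 in the others. Among KO MK cells the highest values were thus in the 2 cells with few megakaryocyte transcripts. KO MK minus WT MK was 0.98 (SD 2.06), and -1.01 (SD 1.12) without those 2 cells, so the sign turned. KO MK minus KO NMK was -0.54 (SD 2.55), and -2.53 (SD 2.31) without them, which exceeded the spread. From medians over all cells it was -2.66, also beyond its SD. WT MK minus WT NMK was -1.35 (SD 2.24), within the spread, but -2.57 from medians and -2.50 as the log2 ratio of means, both beyond it. Summed granulocyte-monocyte markers were also highest in replicates 2 and B1-4 among KO MK cells, at 2207.6 and 1180.3 TPM against 271.7 to 737.1 TPM in the other 3, and their part in the Ltc4s level was not tested. Over the whole list, 5 of 17 granulocyte-monocyte markers averaged at least 1 TPM in KO MK, 4 in WT MK, 6 in KO NMK and 5 in WT NMK cells, with Mpo, S100a8, Ltf, Camp and Ngp at 0 in every KO MK cell. Of 13 mast cell and basophil markers 1 reached that mean in KO MK cells and 2 did in WT MK cells, and none of 5 eosinophil markers did in any group.

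The main cyclooxygenase transcript of these cells was Ptgs1. Ptgs1, the constitutive enzyme of platelets, occupies chromosome 2, 36230426 to 36252272, plus strand. Its level was 36, 24, 17.5, 9.9 and 7.9 TPM in KO MK replicates 1B, B1-3, 1A, 2 and B1-4, against 36, 19.3, 16.3, 16, 13 and 10.7 TPM in WT MK cells. The median was 14 TPM (0 to 49.8) in KO NMK and 3.9 TPM (0 to 15.1) in WT NMK cells. The 2 MK groups covered nearly the same range, at means of 19.1 TPM ± 11.4 in KO and 18.6 TPM ± 9.04 in WT (SD, n = 5 and 6), a log2 difference of -0.05 (SD 0.71), and of 0.50 (SD 0.55) without KO MK B1-4 and 2. WT MK cells were 1.73 above WT NMK cells (SD 1.02), but 0.52 (SD 1.47) in the full table and 0.83 with a pseudocount of 10, neither of which would be counted. KO MK minus KO NMK was 0.63 (SD 1.39), and 1.19 (SD 1.42) without B1-4 and 2. KO NMK minus WT NMK was 1.04 (SD 1.41), less than the spread, but 1.55 (SD 1.07) without the 2 KO NMK libraries of low housekeeping score and 1.34 (SD 1.18) without B1-2a alone.

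Ptgs2, the inducible enzyme (chromosome 1, 150100031 to 150108227, plus strand), was at or near 0 in most cells. It was 8.4 TPM in KO MK B1-4 and 0.1 TPM or less in 1B, 1A, B1-3 and 2, against 16.2, 2.4, 2.2, 0.5, 0.1 and 0 TPM in WT MK cells. KO NMK cells had 0.2 TPM or less, and WT NMK cells had 15.2 TPM in replicate 4A and 0.4 TPM or less in the other 8. A level of 1 TPM or more was found in 1 of 5 KO MK (20%, exact Clopper-Pearson 95% interval 0.505 to 71.6%), 3 of 6 WT MK (50%, 11.8 to 88.2%), 0 of 13 KO NMK (0 to 24.7%) and 1 of 9 WT NMK cells (11.1%, 0.281 to 48.2%). Counting error is all that these intervals cover; they overlap between all groups, and none of the 4 differences, which ran from -0.65 to 0.79, exceeded its SD. Single cells decided this for 2 of them. KO MK minus WT MK was -0.65 (SD 1.48), but -1.28 (SD 1.21) without B1-4, -1.29 (SD 1.30) without B1-4 and 2, and -1.84 (SD 1.59) with the 5 similar WT MK libraries counted as 1. WT MK minus WT NMK was 0.79 (SD 1.39), but 1.22 (SD 0.999) without WT NMK 4A and 1.98 (SD 1.42) with those 5 counted as 1. KO MK minus KO NMK was 0.63 (SD 0.71), and -0.01 (SD 0.09) without B1-4 and 2. Ptgs1 exceeded Ptgs2 in 4 of 5 KO MK, 6 of 6 WT MK, 12 of 13 KO NMK and 7 of 9 WT NMK cells.

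Tbxas1, which completes the path to thromboxane A2, was higher in MK than in NMK cells of either genotype in the table without outliers. It occupies chromosome 6, 38875404 to 39084585, plus strand. Its level was 114.4, 40.1, 36, 18.4 and 4.7 TPM in KO MK replicates 1B, B1-3, 1A, B1-4 and 2, against 30, 13.1, 11.4, 10.6, 8.7 and 8.3 TPM in WT MK replicates B1-1, 1A, 4, 1, 1B and 2. In KO NMK cells the median was 2.2 TPM (0 to 17) and in WT NMK cells 4.5 TPM (0 to 10.7). The 3 highest KO MK cells, the same 3 that carried Alox12, exceeded every WT MK cell, and replicate 2 was below them all. MK minus NMK was 2.95 (SD 1.63) in KO cells, 3.91 (SD 1.56) there without B1-4 and 2, and 1.53 (SD 1.01) in WT cells. In the full table neither exceeded its SD, at 1.70 (SD 2.05) in KO and 0.51 (SD 1.71) in WT cells, and the WT value was 0.65, under 2-fold, with a pseudocount of 10. KO MK minus WT MK was 1.10 against an SD of 1.16, within the spread, but 2.07 (SD 0.72) without B1-4 and 2, when the groups no longer overlapped. Leaving out B1-4, replicate 2 or WT MK B1-1 alone also took it past its SD. The annotation places 762 bases of the antisense gene Hipk2 over Tbxas1. Also on the other strand, 1700025N23Rik covers 3721 bases and Gm42962 covers 67228 bases of it. Likewise Gm26542 covers 1664 bases of Ltc4s, Gm19719 covers 5117 bases of Alox5ap and Gm43621 covers 2022 bases of Ptgs1. The strand setting of the counting is not given in the sources used here, so reads in these stretches cannot be told apart. Hipk2 averaged 7.72 TPM in KO MK, 8.1 TPM in WT MK, 1.85 TPM in KO NMK and 1.27 TPM in WT NMK cells.

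Pla2g4a, which frees arachidonic acid from membrane lipids, was abundant in all 4 groups. It occupies chromosome 1, 149829618 to 149961290, minus strand. Its level was 274.8, 264.3, 142.1, 122.6 and 94.9 TPM in KO MK replicates B1-3, B1-4, 2, 1B and 1A, against 159.3, 124.3, 104, 100.3, 95.7 and 89.3 TPM in WT MK cells. The median was 109.3 TPM (0 to 387.9) in KO NMK cells and 132.2 TPM (16.8 to 166.5) in WT NMK cells. KO MK averaged 179.7 TPM ± 83.8 and WT MK 112.2 TPM ± 26.0 (SD, n = 5 and 6), and KO MK minus WT MK was 0.58 (SD 0.51) on the log2 scale, under the 2-fold limit used here, and 0.42 (SD 0.50) without B1-4 and 2. None of the other 3 differences, from -0.74 to 1.72, exceeded its SD, and KO MK minus KO NMK was 1.56 (SD 2.61) without B1-4 and 2. Pla2g4a was at 10 TPM or more in 5 of 5 KO MK, 6 of 6 WT MK, 10 of 13 KO NMK and 9 of 9 WT NMK cells.

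For a count over the 8 genes, a gene was taken as higher or lower where the difference was at least 1 on the log2(TPM + 1) scale, or 2-fold, and larger than the pooled SD between cells. KO MK against WT MK gave 2 of 8 higher, Alox12 and Alox5ap, and 0 lower, where 9.74% of 11796 genes were higher and 7.07% lower. Without B1-4 and 2 the higher ones were Alox12 and Tbxas1. That contrast was used to choose the genes, so nothing is read from the count. KO MK against KO NMK gave 3 of 8 higher, Alox12, Alox5 and Tbxas1, where 13.3% of 13365 genes were higher and 0.614% lower, and it too includes the KO MK cells. WT MK against WT NMK, which used no KO cell, gave 3 of 8 higher, Alox5, Ptgs1 and Tbxas1, and 1 lower, Alox5ap, where 25.6% of 11562 genes were higher and 3.33% lower. None of the 8 had all WT MK cells beyond all WT NMK cells, where 4.58% of genes were higher in that way and 0.528% lower. KO NMK against WT NMK gave 0 of 8 in either direction, where 2.52% of 12835 genes were higher and 2.19% lower, and none of the 8 had groups without overlap, where 0.0545% of genes were lower in that way. With so high a share of all genes in WT cells, 3 of 8 is not read as a result about these genes. The median difference of the 8 genes was 0.78 in KO MK against WT MK, 1.66 in KO MK against KO NMK, 0.60 in WT MK against WT NMK and -0.52 in KO NMK against WT NMK, beside 0.09, 0.59, 0.70 and 0.20 over all genes compared. With the MK groups taken apart by genotype, MK minus NMK of Alox12 was 5.34 in KO and 0.16 in WT cells, and that of Alox5 was 6.45 in KO and 5.57 in WT cells, values not tested against each other.

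**Figure D4:**
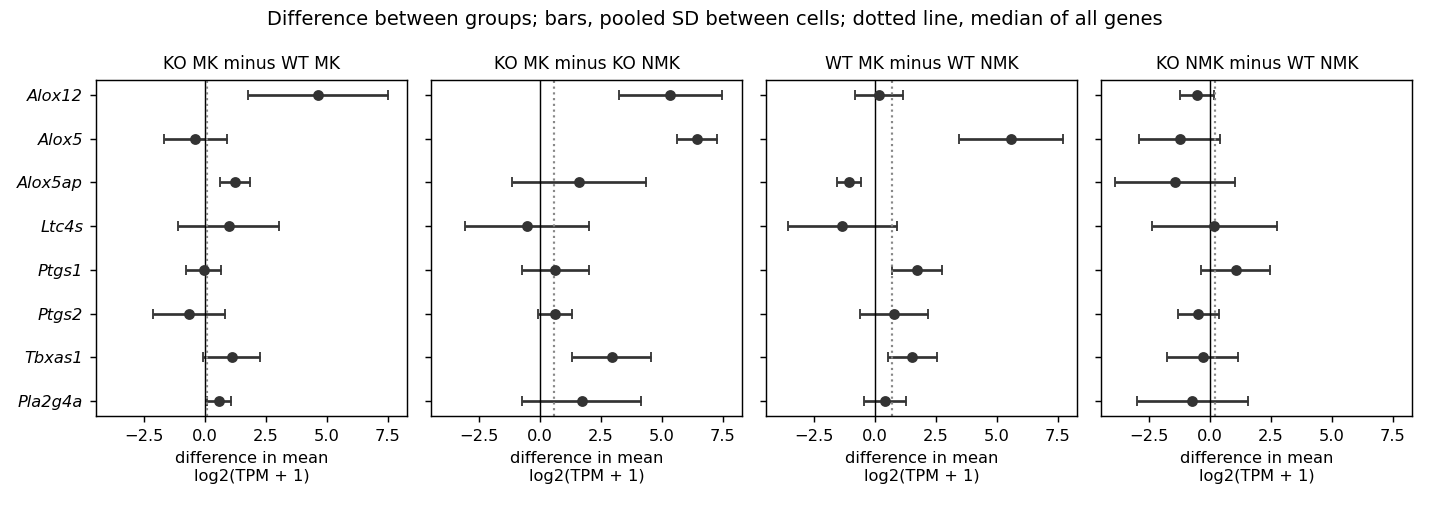
Difference in mean log2(TPM + 1) for each of the 8 genes in 4 comparisons, as points, with bars of ± 1 pooled SD between cells and a dotted line at the median of all genes compared. Alox12 stands at 4.63 in KO MK minus WT MK and at 0.16 in WT MK minus WT NMK, while Alox5 stands near 0 between the MK groups and at 6.45 and 5.57 between MK and NMK cells.

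Titles of part of the libraries carry the prefix B1, whose meaning the labels do not give. Among libraries without the prefix, KO MK minus WT MK of Alox12 was 5.50 (3 and 5 cells), that of Alox5 was -0.19 and that of Tbxas1 was 1.36. Among those with it, from 2 KO MK cells and 1 WT MK cell, that of Alox12 was 3.83 against an SD of 5.41, within the spread, that of Alox5 was -1.88 against an SD of 0.04, beyond it, and that of Tbxas1 was -0.13. Alox5ap was no longer higher there, at 0.20, and Ptgs1 and Ptgs2 were lower, at -1.31 (SD 1.05) and -2.42 (SD 2.19). KO MK minus KO NMK of Alox5 was 6.32 without the prefix and 6.64 with it. The sign of the Alox12 and Alox5 values was the same in both sets but their calls were not, the sign of Tbxas1 between the MK groups differed, and no WT NMK library in the table has the prefix.

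Beyond the 8 genes, 80 other genes of the pathway were listed, of which 30 averaged at least 10 TPM in some group and 33 stayed below 1 TPM in every group. In KO MK against WT MK cells, 8 of the 45 compared were higher and 1 was lower, where 9.74% of all genes were higher and 7.07% lower, and the median difference was 0.50 beside 0.09 over all genes. Of the 45 compared, 3 had all KO MK cells above all WT MK cells, as did 2.38% of all genes. Ptgir, the receptor for prostacyclin, was 107.1, 52.5, 32.6, 20 and 1.5 TPM in KO MK replicates 1B, 1A, B1-3, B1-4 and 2, against 1.3 TPM or less in every WT MK cell. Hpgds, which makes prostaglandin D2, averaged 61.9 TPM ± 21.7 in KO MK and 6.65 TPM ± 5.57 in WT MK cells, with ranges of 38.8 to 91.8 and 1.6 to 17.1 TPM. Cotl1, coactosin-like protein, an actin-binding protein that also binds 5-lipoxygenase, averaged 88.8 TPM ± 54.7 in KO MK and 10.8 TPM ± 8.84 in WT MK cells. For these 3 genes all 5 KO MK cells lay above every WT MK cell, B1-4 and 2 included, though Ptgir in replicate 2 exceeded the highest WT MK cell by little. Their differences were 4.29 (SD 1.41) for Ptgir, 3.24 (SD 0.79) for Hpgds and 3.01 (SD 1.02) for Cotl1, and without B1-4 and 2 they were 5.49, 2.95 and 3.14.

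The other named genes of that comparison were Ptgr1, a prostaglandin and leukotriene reductase, at 1.36 (SD 0.63), and Pla2g16, a phospholipase, at 1.17 (SD 0.95), which was no longer counted without B1-4 and 2. Hpgd, which inactivates prostaglandins, was the gene counted as lower, at 0.18 TPM ± 0.40 in KO MK and 11.5 TPM ± 16.3 in WT MK cells. Its WT MK level was 35.9 and 28.6 TPM in replicates 1B and 1A and 3 TPM or less in the other 4, it was listed at 0 in all NMK cells of both genotypes, and it was no longer counted without B1-4 and 2. In that setting the gene counted as lower was Cbr1, a carbonyl reductase that acts on prostaglandins, at -2.60 (SD 1.30). It was 10.5, 0 and 23.4 TPM in KO MK replicates 1B, 1A and B1-3, and 121.1 and 58.4 TPM in B1-4 and 2, against 32.3 to 48.7 TPM in WT MK cells. Of the 8 higher genes, 5 were still counted without B1-4 and 2, and Tbxa2r, the thromboxane receptor, Cysltr2, Acsl5 and Fads2 were added. The share of all genes was not computed in that setting. Tbxa2r was 57.9, 38.9, 28.4, 3.5 and 0 TPM in KO MK replicates 1B, 1A, B1-3, 2 and B1-4, against 6.4 to 22.6 TPM in WT MK cells, the same order of KO MK cells as for Alox12.

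Between MK and NMK cells the counts of other pathway genes were near the shares over all genes and are not read as a result about the pathway. In KO MK against KO NMK cells, 5 of 44 were higher and 0 lower, where 13.3% of all genes were higher and 0.614% lower. Without B1-4 and 2, 11 were higher, 4 of them among the 5, with no share of all genes computed in that setting. The 5 were Ptgir at 4.01, Ptgr1 at 3.19, Tbxa2r at 2.54, the epoxide hydrolase Ephx1 at 2.41 and the acyl-CoA synthetase Acsl5 at 2.20. In WT MK against WT NMK cells, 15 of 45 were higher and 2 lower, where 25.6% of all genes were higher and 3.33% lower. The higher ones included Ptger3, a prostaglandin E2 receptor, at 3.08 (SD 1.73), Plaa, a phospholipase A2-activating protein, at 2.45 (SD 1.59), Hpgd at 2.22 (SD 1.44), Tbxa2r at 1.63 (SD 1.54), Cysltr2 at 1.40 (SD 1.26) and Ptges3 at 1.18 (SD 0.80). Of the list of genes that make arachidonic acid or join it to lipids, 6 of 9 compared were higher and 0 lower. The median of the 9 was 1.31, beside 0.70 over all genes. That list is 1 of 7 pathway lists, so nothing is read from its count. With the full table, only 2 of all 88 listed pathway genes were higher in this comparison, Alox5 among them. The 6 counted without outliers included Acsl4 at 1.96, Fads2 at 1.88, Acsl5 at 1.58, Fads1 at 1.49 and Lpcat3 at 1.01. Acsl3 at 0.93 (SD 1.58) and Elovl5 at 0.53 (SD 1.40) were not counted. The lower ones were Gpx1, a glutathione peroxidase that reduces lipid hydroperoxides, at -1.80 (SD 0.37), and Pla2g16 at -1.94 (SD 1.72). The mean of Gpx1 was 1371 TPM ± 288.2 in WT MK cells, against 4856 TPM ± 1370 in WT NMK cells, and every WT MK cell was below every WT NMK cell, as was so of 0.528% of genes. In KO NMK against WT NMK cells, 1 of 44 was higher, where 2.52% of all genes were. It was Cotl1, at 58.3 TPM ± 37.3 in KO NMK and 13.2 TPM ± 14.0 in WT NMK cells, a difference of 2.13 (SD 1.77). Without the 2 KO NMK libraries of low housekeeping score, 4 of all 88 listed pathway genes were higher in that comparison, Ptgs1 among them. The share of all genes was not computed in that setting, so nothing is read from the 4. Cotl1 was thus counted as higher in KO cells in both the MK and the NMK comparison. The NMK count was near the share over all genes. In the full table and with a pseudocount of 0.1 Cotl1 was not counted in NMK cells, so it is not read as a result there. The median difference of the other pathway genes was 0.97 in KO MK against KO NMK, 0.74 in WT MK against WT NMK and 0.17 in KO NMK against WT NMK cells, beside medians of 0.59, 0.70 and 0.20 over all genes.

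**Figure D5:**
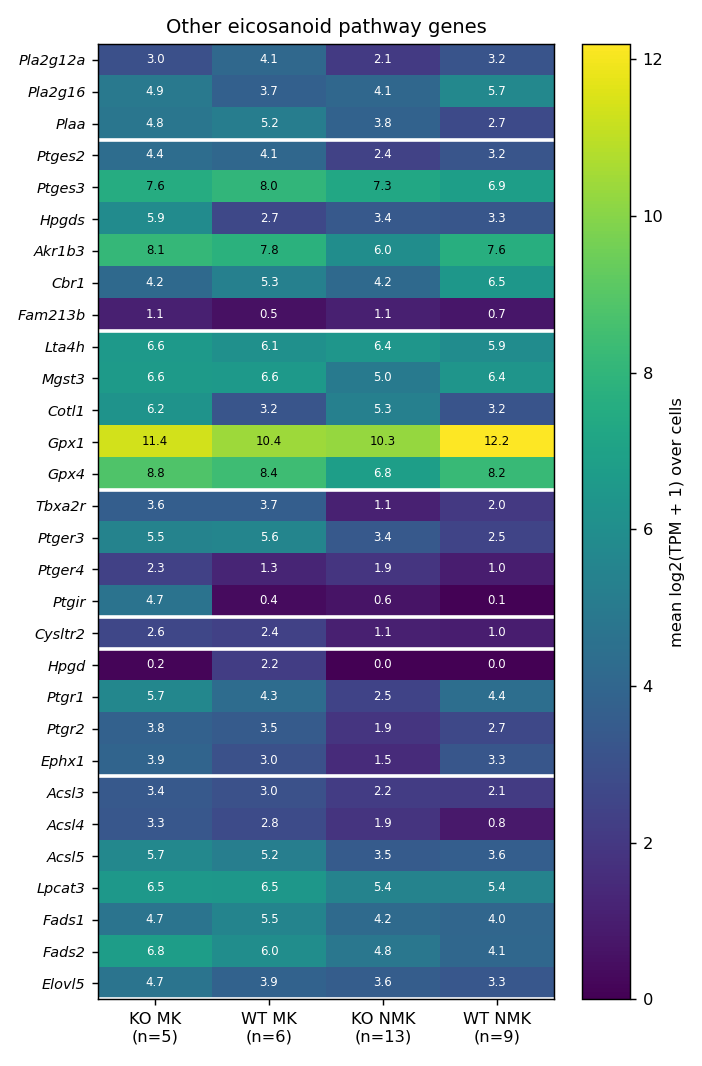
Mean log2(TPM + 1) over cells of the 30 other pathway genes that average at least 10 TPM in some group, in KO MK (n = 5), WT MK (n = 6), KO NMK (n = 13) and WT NMK (n = 9) cells, in order of role. Ptgir, Hpgds and Cotl1 are higher in KO MK than in WT MK cells, and Hpgd appears in WT MK cells, at a mean of 11.5 TPM.

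The genes whose pattern over the 33 libraries was most like that of Alox12, by Pearson's r of log2(TPM + 1) among 9800 genes, were Ly6g6d (0.93), Ly6g6f (0.93), Cd226 (0.92), Ooep (0.91) and Thbs1 (0.89). Thbs1, which encodes the granule protein thrombospondin 1, averaged 287.2 TPM in KO MK, 4.75 TPM in WT MK, 0.015 TPM in KO NMK and 0 in WT NMK cells. For Alox5 they were Magef1 (0.88), B3gat2 (0.87), Engase (0.87), Ehd3 (0.86) and Adora2b (0.86), and Ehd3 averaged 58.8 TPM in KO MK and 76.6 TPM in WT MK cells, against 0.0077 TPM in KO NMK and 0 in WT NMK cells. The points are cells of 4 groups of unknown depth that share libraries, so r describes these tables alone. By rank correlation 0 of each 5 stayed among the nearest 5, and many cells share a value of 0 for these genes. Among the other enzymes, Alox12 correlated most with Tbxas1 (0.59) and Alox5 (0.54), and Alox5 most with Tbxas1 (0.63).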

How the data were processed

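The authors deposited gene values as TPM for single-cell SMART-Seq libraries, in a table of 46 libraries and one of 33 without outliers, which was the main table here. The submitters' processing notes list featureCounts 1.6.2, STAR 2.6.1e, cutadapt 1.9.1, FastQC 0.11.7 and the build mm10. How outliers were chosen, the strand setting, the annotation and the step to TPM are not given in the sources read here, so depth is unknown.

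Columns were matched to samples by the labels. The labels name 90 samples, of which 44 were not analysed here, and 1 unmatched column was not used. Each group counted as 1 sample, so no test was run. A comparison is the mean of log2(TPM + 1) in one group minus that in the other (pseudocount 1), over genes averaging at least 1 TPM in either, set beside the SD pooled over cells; low genes are understated on this scale. The 8 genes, the 7 pathway lists of 88 genes and the marker lists were chosen with earlier results of these data known. Besides the 8 genes, pathway genes averaging at least 10 TPM in some group could be named, others by count only, and for Alox12 and Alox5 the 5 genes of highest Pearson r among those at 1 TPM or more in at least 5 libraries, without predicted, small RNA, mitochondrial and ribosomal protein genes. Median-ratio rescaling, other pseudocounts, filters and tables, and each cell left out were alternatives. The comparison was run on simulated normal values with known shifts put on well-expressed genes only. How it behaves at low levels or with many zeros was thus not tested. Shares have exact Clopper-Pearson 95% intervals. Positions came from GENCODE M21 (GRCm38) and promoters from RefSeq (GRCm38.p6). Software was matplotlib 3.10.9, scipy 1.17.1, pandas 2.3.3, numpy 2.4.6 and Python 3.11.15.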

Additional observations from a re-analysis of the deposited data

Results flagged for a closer look

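Within groups of 4 to 10 cells, 3 of 24 gene and group pairs had a single cell apart from the rest by Dixon's criterion. It flags about 1 in 20 by chance among independent normal values. Many values here were at or near 0 and the genes share cells, so 3 of 24 is not read against that rate. Ptgs2 was 8.4 TPM in KO MK B1-4 and 0.1 TPM or less in KO MK 1B, 1A, B1-3 and 2. Tbxas1 was 30 TPM in WT MK B1-1, the WT MK cell whose title has the prefix B1, and 8.3 to 13.1 TPM in the other 5. Ptgs2 was 15.2 TPM in WT NMK 4A and 0.4 TPM or less in the other 8 WT NMK cells.

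Of the libraries that the authors left out, 3 carried Alox12 above the level of every WT library, though the 5 left-out WT MK libraries were of low housekeeping score. It was 256.9 TPM in KO MK replicate 1, 69.2 TPM in KO MK B1-1 and 43.6 TPM in KO MK B1-1b. In replicate 1, Alox5 was listed at 0 while Alox5ap was 1927.3 TPM and Tbxas1 was 51.3 TPM, so Alox12 was present there without Alox5.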

How the results depend on the processing

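Of 368 recomputed differences of the 8 genes, 340 moved by less than the pooled SD and 0 that were counted as higher or lower changed sign. Some of the 368 could not move, as leaving out libraries of low housekeeping score or few genes removed only KO NMK cells. None of 528 with 1 cell left out moved by more than its SD. At these group sizes that outcome was fixed in advance, so nothing is read from it. Among those 528, calls near the limits changed for Alox5ap, Ptgs1, Ptgs2 and Tbxas1. No paired analysis was possible because no test was run and the replicate names pair no cells. For KO MK minus WT MK, Alox12 was 7.65 without KO MK B1-4 and 2, and Alox5 was -1.88 within the prefix B1. For KO MK minus KO NMK, Alox12 was 7.90 and 3.11 with pseudocounts of 0.1 and 10, 7.82 as the log2 ratio of means, 7.66 from medians and 8.36 without B1-4 and 2. Alox5 was 4.67 in the full table, 9.54 and 3.38 with those pseudocounts and 7.30 without B1-4 and 2. For WT MK minus WT NMK, Alox5 was 8.15 and 3.05 with those pseudocounts and 3.004 as the ratio of means, and for KO NMK minus WT NMK it was -4.13 as the ratio of means.

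Counts over all 88 pathway genes moved more. The share of all genes was not computed in the other settings, so the counts there are not read as results about the pathway. KO MK against WT MK had 10 higher and 1 lower, which were 4 and 0 in the full table and 6 and 0 with a pseudocount of 10. KO MK against KO NMK had 8 higher and 0 lower, which were 3 higher in the full table and 14 higher and 1 lower without B1-4 and 2. WT MK against WT NMK had 18 higher and 3 lower, which were 2 and 5 in the full table and 6 higher with a pseudocount of 10. KO NMK against WT NMK had 1 higher, which was 0 in the full table and with a pseudocount of 0.1, and 4 without the libraries of low housekeeping score. The full table includes 10 further libraries of low housekeeping score; other causes were not tested. The median of all genes in KO MK minus KO NMK was 0.59, and 0.36 without those libraries, 1.34 and 0.09 with pseudocounts of 0.1 and 10 and 0.75 with median-ratio rescaling. With the prefix B1 alone, WT NMK has no library, so 2 comparisons gave no value. Depth is unknown, so a listed 0 sets no upper limit on expression.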
